A study of Mus musculus with 24 samples.

Results

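The Hox genes of the mouse stand in 4 clusters, Hoxa, Hoxb, Hoxc and Hoxd, and the H3K4me3 regions at their transcription start sites (TSSs) were examined in the cerebral cortex. The members were the listed regions that overlapped an annotated TSS of a gene named Hoxa, Hoxb, Hoxc or Hoxd plus a number. Of 17993 regions, 3 met this rule, and 36 of the 39 annotated Hox genes had no listed region over any TSS. The 2 regions described here lay at Hoxa7 and Hoxd1, and the other values are over 38 Hox genes. A further 3 regions lay inside the clusters without covering a Hox TSS, next to Hoxa4, Hoxc6 and Hoxd8, and are described beside the members.

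H3K4me3 was profiled in C57BL/6 cerebral cortex by single ChIP-Seq, which used an antibody to H3K4me3 only, and by tChIP-Seq, in which chromatin bound by anti-FLAG antibody was eluted and then taken through the H3K4me3 precipitation. All mice carried a FLAG-tagged histone H2B under the CAG promoter in the Rosa26 locus. In Rosa H2B-FLAG mice, Vasa-Cre had switched the tag on in nearly all cells, and these animals were kept as heterozygotes. In Camk2a H2B-FLAG mice, heterozygous for the tag and for CaMK-CreERT2, the tag was switched on in Camk2a-positive neurons by tamoxifen, given to males at 8 weeks of age at 1 mg per day for 5 days, and tissue was taken a month later. The labels and methods used here give no tamoxifen treatment, age or sex for the Rosa mice, so that line, Cre and treatment cannot be told apart. Each of the 4 groups (line by kind of ChIP-Seq) had 3 libraries, each from a lysate of 2 animals.

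Hox genes encode homeodomain transcription factors that give cells along the head-to-tail axis their position. Within a cluster they lie in the order in which they are used, with the low numbers expressed earlier and further forward and the high numbers towards the tail. In the embryo they are active in the hindbrain and spinal cord, and the cortex forms in front of their domains. Where they are silent, the clusters are known to be covered by Polycomb complexes and H3K27me3, while Trithorax-type methyltransferases place H3K4me3 at active promoters. CG-rich promoters are the usual sites of H3K4me3.

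The Hoxa cluster held 2 regions over 95.5 kb, the Hoxd cluster held 2 over 94.7 kb, the Hoxc cluster held 1 over 113.3 kb and the Hoxb cluster held 0 over 171.9 kb, measured between the outermost TSSs of these genes. All coordinates are on mm9 with GENCODE M1 genes. The Hoxd1 region (chr2:74600550-74601590, 1041 bp) covered the start of Hoxd1, the Hoxd gene nearest the low-number end, and a start of the antisense gene 6720416L17Rik, named Haglr by RefSeq. Since ChIP reads have no strand of transcription, signal from a gene and its antisense partner cannot be told apart. The Hoxa7 region (chr6:52171278-52171964, 687 bp) covered 1 of the 5 annotated starts of Hoxa7, a gene of the trunk.

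The regions just outside the rule were closest to Hoxd8, Hoxa4 and Hoxc6. The Hoxd8-adjacent region (chr2:74543230-74543778, 549 bp) began 21 bp after the nearest of the 3 annotated starts of Hoxd8, with 375 bases on its UTR and 174 on its coding sequence. That region also overlapped the gene 1700109F18Rik. The Hoxa4-adjacent region (chr6:52141884-52142360, 477 bp) lay 132 bp before the Hoxa4 start, within an intron of long Hoxa3 and 2700086A05Rik transcripts. The Hoxc6-adjacent region (chr15:102829505-102830292, 788 bp) was intronic, 668 bp from a Hoxc6 start, and overlapped the genes Hoxc6 and Gm20398. The other 33 Hox genes had no region within 1000 bp of a start. Their neighbourhoods were emptiest in the Hoxb cluster, where the nearest region was 97.9 kb from Hoxb1 and 192.6 kb from Hoxb9.

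**Figure D1:**
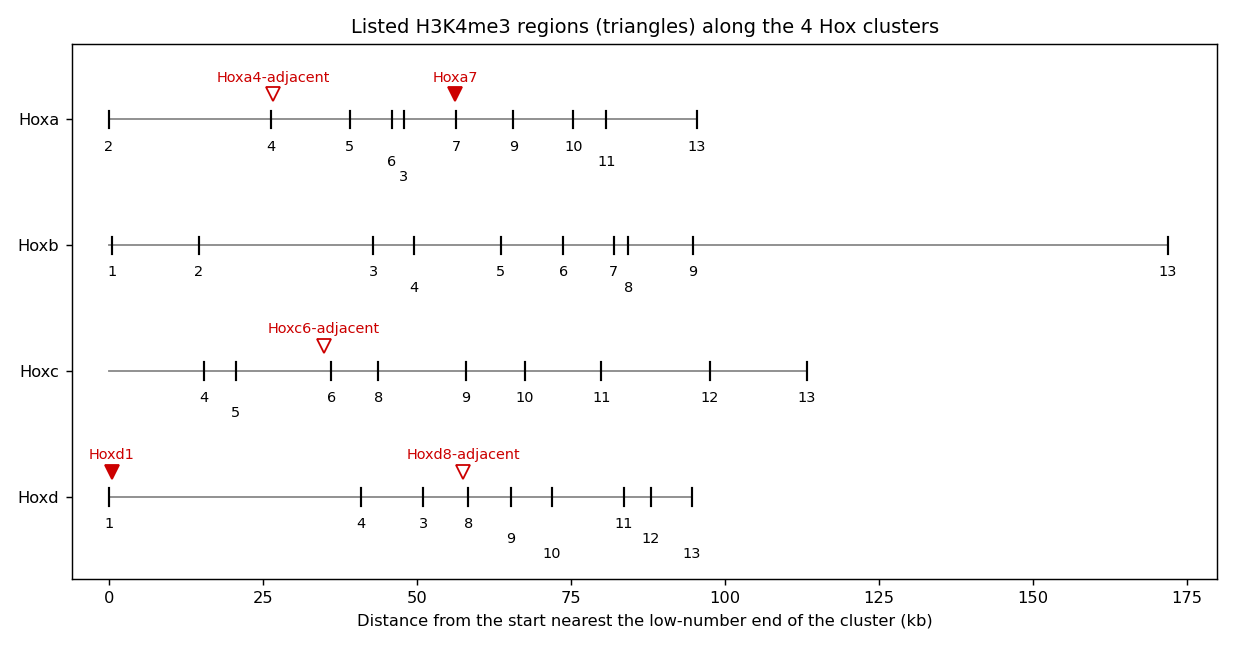
Map of the 4 Hox clusters in kb from the annotated start nearest the low-number end, with the most upstream start of each Hox gene as a tick. Filled triangles are the 2 regions over a Hox TSS (Hoxa7, Hoxd1) and open triangles the 3 others inside the clusters, and the Hoxb line of 171.9 kb has none.

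To show what these places look like, the 250 bases before the start are given for Hoxd1 and Hoxa7, and the central 250 bases for the 2 intronic regions, both lower in Camk2a than in Rosa tChIP-Seq. All run 5′ to 3′ on the strand of the Hox genes, from the mm9 genome, with CG dinucleotides in capitals. They lie at chr2:74600787-74601036 (+) for Hoxd1, chr6:52171854-52172103 (-) for Hoxa7, chr6:52141997-52142246 (-) for the Hoxa4-adjacent region and chr15:102829773-102830022 (+) for the Hoxc6-adjacent region.
Hoxd1: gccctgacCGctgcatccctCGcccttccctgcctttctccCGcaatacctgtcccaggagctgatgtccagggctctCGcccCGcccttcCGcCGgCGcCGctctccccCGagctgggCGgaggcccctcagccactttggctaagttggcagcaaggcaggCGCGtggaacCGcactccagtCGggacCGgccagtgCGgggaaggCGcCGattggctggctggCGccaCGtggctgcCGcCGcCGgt
Hoxa7: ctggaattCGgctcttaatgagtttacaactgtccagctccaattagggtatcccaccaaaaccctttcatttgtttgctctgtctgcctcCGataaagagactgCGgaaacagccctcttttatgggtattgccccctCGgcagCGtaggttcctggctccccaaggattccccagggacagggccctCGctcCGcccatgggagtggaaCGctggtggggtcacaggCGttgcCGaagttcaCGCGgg
Hoxa4-adjacent: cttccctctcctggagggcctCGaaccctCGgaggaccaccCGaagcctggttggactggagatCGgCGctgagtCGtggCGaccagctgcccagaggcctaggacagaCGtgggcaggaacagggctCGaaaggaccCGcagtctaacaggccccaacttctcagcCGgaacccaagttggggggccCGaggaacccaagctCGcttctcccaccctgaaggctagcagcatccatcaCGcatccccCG
Hoxc6-adjacent: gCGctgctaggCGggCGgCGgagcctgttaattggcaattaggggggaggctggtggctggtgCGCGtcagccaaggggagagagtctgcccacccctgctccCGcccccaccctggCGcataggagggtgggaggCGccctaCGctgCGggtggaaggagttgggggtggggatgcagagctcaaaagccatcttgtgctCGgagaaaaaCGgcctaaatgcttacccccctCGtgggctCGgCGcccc
These windows held 24 CG dinucleotides at Hoxd1 and 12 at Hoxa7, with 15 in the Hoxa4-adjacent and 16 in the Hoxc6-adjacent one. The Hoxd1 window lay wholly inside its region, whereas 111 of the 250 bases of the Hoxa7 window did.

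Most Hox promoters stood in the range of CG content where most genes of the genome had a region. CG dinucleotides were counted in the 1000 bases around each annotated start, and the richest start of each gene was kept. Of all protein-coding genes, 59.8% had a region over a start, and from the lowest to the highest quintile by CG count the share was 1.15%, 19.7%, 85.4%, 95.2% and 97.4%. Hox genes had between 17 and 147 CG dinucleotides, with a median of 58 against 47 for all genes and 69 for the genes with a region. In the highest quintile stood 7 Hox genes, Hoxa4, Hoxa13, Hoxb9, Hoxd1, Hoxd8, Hoxd11 and Hoxd13, and Hoxd1 alone of these had a region over its start. In the 2 quintiles below it stood 12 and 13 Hox genes, of which Hoxa7 (75 CG dinucleotides, against 93 at Hoxd1) had one. The remaining 6 Hox genes were in the second-lowest quintile. Over the 38 genes, the share with a region was 5.26%, and among the genes with at least as many CG dinucleotides as the lowest Hox gene it was 80.8%. A promoter that is not listed has no deposited count, so the level of the 36 genes without a region was not measured here, and low marking and marking in few cells cannot be told apart.

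**Figure D2:**
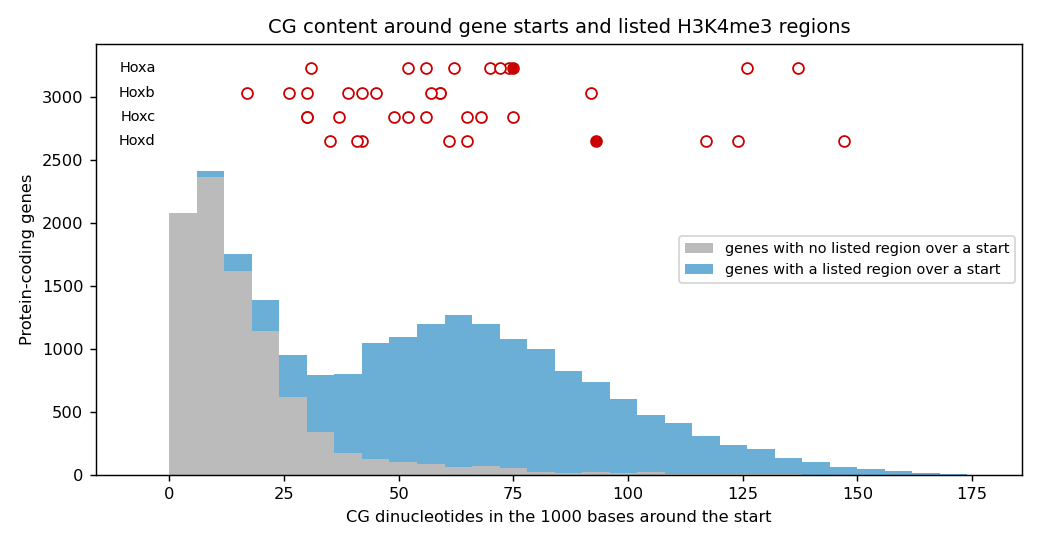
Protein-coding genes by CG dinucleotides in the 1000 bases around their richest start, with the genes that had a listed region in blue and the others in grey. The circles above are the 38 Hox genes by cluster, filled for the 2 with a region, and 32 of them lie in the upper 3 quintiles of CG count, where 85.4% or more of all genes had a region.

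The regions of the clusters were narrow, low and CG-rich. Their widths ran from 477 to 1041 bp, against a median of 1774 bp for all regions. Levels are given as CPM, reads of a region per 1000000 reads in all regions, with library totals scaled by TMM factors. Per kb of region, the mean level over the 4 groups was 14.1 CPM at Hoxa7 and 13.2 at Hoxd1, against a median of 23.8 for all regions. The Hoxa4-adjacent, Hoxd8-adjacent and Hoxc6-adjacent regions stood at 7.73, 8.26 and 12.5 CPM per kb. The Hoxd8-adjacent region had 173 CG dinucleotides per kb, the third highest of the 17968 regions on reference chromosomes, and Hoxd1 had 97.0, Hoxa4-adjacent 86.0 and Hoxa7 67.0. The Hoxc6-adjacent region, with 43.1 per kb, was close to the median of 41.1.

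Total counts per library were 6316125 to 8644574 in Rosa single ChIP-Seq, 1457261 to 1828371 in Rosa tChIP-Seq, 4063200 to 4233144 in Camk2a single ChIP-Seq and 2709729 to 3049130 in Camk2a tChIP-Seq. Libraries of a group differed by slightly more than counting noise (chi-square per degree of freedom 1.03 to 1.09 over all regions), and none was a copy of another. The 2 members together held 44 to 120 counts per library, so single counts carry a large counting error. Within a line, the single ChIP-Seq and tChIP-Seq libraries of one number have the same preparation name in their titles and may come from one lysate. The p-values rest on the spread between libraries of a group. In edgeR's fit this spread is largely pooled over all regions, so it is not that of each region's own 3 libraries alone.

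Hoxa7 varied more than Hoxd1 among the libraries of Camk2a tChIP-Seq. It had 31, 19 and 17 counts (16.2, 11.3 and 11.2 CPM) in Rosa tChIP-Seq and 43, 22 and 23 (14.1, 7.94 and 8.47 CPM) in Camk2a tChIP-Seq. In single ChIP-Seq it had 41, 69 and 48 counts (5.94, 8.26 and 7.85 CPM) in Rosa and 26, 41 and 36 (6.40, 9.78 and 8.97 CPM) in Camk2a. The first library of each tChIP-Seq group stood above the other 2, and the lines overlapped in both kinds of ChIP-Seq.

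Hoxd1 was measured with 515 counts in all 12 libraries. Its counts were 45, 42 and 27 (23.5, 25.05 and 17.7 CPM) in Rosa tChIP-Seq and 49, 49 and 52 (16.1, 17.7 and 19.2 CPM) in Camk2a tChIP-Seq. In single ChIP-Seq they were 59, 51 and 49 (8.55, 6.10 and 8.02 CPM) in Rosa and 25, 31 and 36 (6.15, 7.40 and 8.97 CPM) in Camk2a. The lines overlapped in both kinds of ChIP-Seq. Per kb of region, the mean level in Rosa tChIP-Seq was 21.2 CPM at Hoxd1 and 18.8 at Hoxa7, and in Camk2a tChIP-Seq it was 16.9 at Hoxd1 and 14.8 at Hoxa7.

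The adjacent regions had fewer counts. The Hoxa4-adjacent region had 18, 8 and 16 counts in Rosa tChIP-Seq but 2, 5 and 5 in Camk2a tChIP-Seq, with 20, 32 and 21 in Rosa and 7, 7 and 7 in Camk2a single ChIP-Seq. The Hoxc6-adjacent region had 35, 27 and 38 counts in Rosa tChIP-Seq, 32, 20 and 28 in Camk2a tChIP-Seq, 41, 62 and 37 in Rosa single ChIP-Seq and 10, 22 and 14 in Camk2a single ChIP-Seq. The Hoxd8-adjacent region had 18, 20 and 13 counts in Rosa tChIP-Seq, 12, 12 and 8 in Camk2a tChIP-Seq, 11, 15 and 13 in Rosa single ChIP-Seq and 9, 9 and 14 in Camk2a single ChIP-Seq. At these depths, Rosa tChIP-Seq lay above Camk2a tChIP-Seq in CPM in every library of all 3, and this direction with no overlap was seen at 23.6% of all regions.

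**Figure D3:**
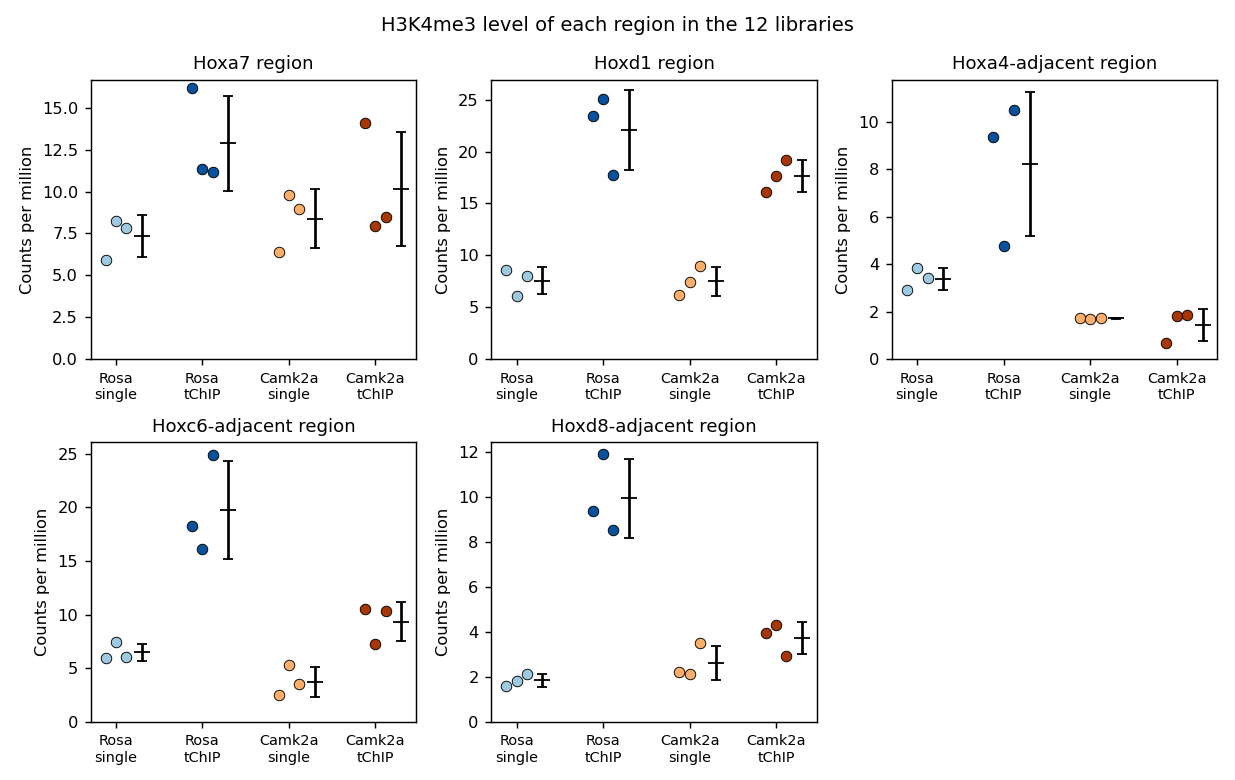
CPM of each region in the 12 libraries by group, with the mean and SD of the 3 libraries as a bar beside the points. In every panel the Rosa tChIP-Seq points lie above the Rosa single ChIP-Seq points, and at the 3 adjacent regions they lie above the Camk2a tChIP-Seq points too.

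The line effect in tChIP-Seq compares chromatin enriched for Camk2a-positive neurons with that of nearly all cells of the cortex. The paper puts the share of tagged cells in the brain near the limit it estimated for its method. Chromatin of untagged cells may thus remain in Camk2a tChIP-Seq, and its part in these low regions was not tested. Both members had values below 0 on the log2 scale, and 0 of 2 passed an adjusted p of 0.01 in edgeR's quasi-likelihood test with Benjamini-Hochberg adjustment over all regions. At an unadjusted p under 0.05 there were 0 as well, and DESeq2's Wald test called 0. Over all regions tested, 14.6% were called lower and 17.0% higher in this comparison (2620 and 3062 regions, or 3315 and 2570 when scaled to library totals alone). Hoxa7 (12.9 ± 2.85 CPM in Rosa against 10.2 ± 3.42 CPM in Camk2a, SD, n = 3) had a log2 difference of -0.34 with an interval from -0.82 to 0.15. Hoxd1 (22.1 ± 3.86 against 17.6 ± 1.54 CPM) had one of -0.33 with an interval from -0.69 to 0.03. Neither Hoxa7 (adjusted p = 0.286) nor Hoxd1 (adjusted p = 0.139) passed edgeR's test, and both intervals include 0.

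All 3 adjacent regions were called lower in Camk2a tChIP-Seq, as were 14.6% of all regions. In the lowest quintile of regions by mean CPM, which holds Hoxa4-adjacent and Hoxd8-adjacent, 15.9% were called lower. In the next quintile, which holds Hoxc6-adjacent, 24.8% were. The Hoxa4-adjacent region fell from 8.22 ± 3.04 to 1.43 ± 0.674 CPM (SD, n = 3), a log2 difference of -2.49 ± 0.43 (SE) with an adjusted p of 8.57e-07 in the edgeR test, and 1.08% of all regions had a lower value. The Hoxd8-adjacent region fell from 9.95 ± 1.77 to 3.74 ± 0.713 CPM, with a log2 difference of -1.39 ± 0.32 and an adjusted p of 0.00017. The Hoxc6-adjacent region fell from 19.8 ± 4.60 to 9.34 ± 1.84 CPM, with a log2 difference of -1.05 ± 0.22 and an adjusted p of 4.33e-05. Summed over the 5 regions of the clusters, the level was 69.2 to 76.7 CPM in the Rosa tChIP-Seq libraries and 39.0 to 45.3 CPM in the Camk2a ones. Summed over the 2 members alone, the lines overlapped, at 28.9 to 39.7 and 25.6 to 30.2 CPM. In this mixture of cells, fewer marked cells and less mark per cell cannot be told apart. The regions may also have been listed through Rosa tChIP-Seq, where each was highest, since how the list was merged is not given.

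Markers of other cells moved with this comparison, and the counts called are to be read against 14.6% of all regions lower and 17.0% higher. Mural and meningeal fibroblast markers, of which 5 of 10 had a region, summed to 160.7 to 170.6 CPM in Rosa and 28.9 to 33.5 CPM in Camk2a tChIP-Seq, with 4 called lower. Endothelial markers (8 of 10 with a region, all 8 lower) summed to 351.2 to 353.7 against 101.0 to 109.0 CPM. Astrocyte markers (9 of 10 with a region, 8 lower and Slc1a2, a glutamate transporter, higher by 0.38 on the log2 scale) summed to 787.9 to 826.7 against 485.2 to 488.8 CPM, and inhibitory neuron markers (7 of 10, 4 lower) to 159.4 to 184.2 against 101.4 to 109.2 CPM. Of the oligodendrocyte markers, 8 of 10 had a region, 6 were lower and Mbp, a myelin gene, was higher by 1.18 on the log2 scale. The list summed to 357.8 to 372.7 against 224.4 to 230.9 CPM. Cspg4 (24.9 CPM in Rosa and 6.21 CPM in Camk2a tChIP-Seq) is in both the mural and the oligodendrocyte list and counts in both. Excitatory neuron markers (9 of 10, 8 higher) summed to 644.9 to 705.6 in Rosa and 1247 to 1319 CPM in Camk2a. Of 9 microglial markers looked up, 0 had a region. Pax2 was the only one with a region of 8 hindbrain and spinal cord neuron markers, with 8.95 to 11.8 against 7.74 to 13.0 CPM and a log2 difference of 0.02. The part of these cell types in the Hox values was not tested.

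In single ChIP-Seq, which takes the chromatin of all cells in both lines, neither member was called by edgeR, 0 had an unadjusted p under 0.05, and DESeq2 called 0. Of all regions, 1.22% were called lower and 0.928% higher. Hoxd1 (0.01, interval -0.37 to 0.39) and Hoxa7 (0.18, interval -0.19 to 0.55) had intervals on both sides of 0. Hoxc6-adjacent (-0.80, adjusted p = 0.0228) and Hoxa4-adjacent (-0.99, adjusted p = 0.0485) lay below 0 without passing 0.01 in edgeR's test. By size these values were the 25th and 12th lowest of the 17993, while the lowest quintile by mean CPM, which holds Hoxa4-adjacent, had a median of 0.23 with 0.0556% called lower, and the next quintile, which holds Hoxc6-adjacent, a median of 0.10 with 0.111% called lower. Hoxd8-adjacent (0.51, interval -0.16 to 1.18) did not pass the test either. The summed mural and meningeal markers overlapped between the lines here, at 87.7 to 91.3 CPM in Rosa and 84.2 to 96.7 CPM in Camk2a, as did the endothelial ones at 258.3 to 276.7 and 271.0 to 272.4 CPM. The summed oligodendrocyte markers did not overlap, at 414.7 to 427.7 CPM in Rosa and 369.8 to 382.0 CPM in Camk2a, with 3 of 8 called lower, and their part in the Hox values was not tested.

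Within each line, tChIP-Seq was compared with single ChIP-Seq of that line. In Rosa, where nearly all cells carry the tag, both members were higher in tChIP-Seq, with no overlap between the libraries of the 2 groups, as at 30.2% of all regions. Hoxd1 rose by 1.59 ± 0.19 (SE) on the log2 scale, a fold of 3.01 (adjusted p = 1.04e-15), and Hoxa7 by 0.83 ± 0.22, a fold of 1.78 (adjusted p = 0.000525, edgeR's test for both). Without the first Rosa tChIP-Seq library the value at Hoxa7 was 0.61 and did not pass (adjusted p = 0.0586). The 3 adjacent regions rose too, Hoxd8-adjacent by 2.44, Hoxc6-adjacent by 1.58 and Hoxa4-adjacent by 1.27. Of all regions, 24.7% were called higher and 22.5% lower (4439 and 4046, or 5298 and 2522 when scaled to library totals alone), and of the lowest quintile by mean CPM, which holds Hoxa7, Hoxa4-adjacent and Hoxd8-adjacent, 42.4% were called higher. The median difference in that quintile was 0.79, near the value of Hoxa7 and below those of the other two. In the next quintile, which holds Hoxd1 and Hoxc6-adjacent, it was 0.46 and 49.0% were called higher. Each region of the clusters had its highest group mean in Rosa tChIP-Seq. The list came from peaks called in this study, and how the calls were merged is not given. A low region may have been listed only through the group where it is high, which was not tested. Every comparison with Rosa tChIP-Seq carries this limit.

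In Camk2a mice, Hoxd1 rose by 1.22 ± 0.19 (fold 2.34, adjusted p = 1.15e-08) in tChIP-Seq over single ChIP-Seq, by edgeR's test. Hoxa7, at 0.29 with an interval from -0.14 to 0.73, did not pass (adjusted p = 0.243). Of all regions, 25.3% were called higher, 22.6% were called lower, and those called higher were 35.5% in the lowest quintile and 34.1% in the next, which holds Hoxd1. Among the adjacent regions, Hoxc6-adjacent rose by 1.31 (adjusted p = 7.9e-06), while Hoxd8-adjacent (0.52, interval -0.19 to 1.23) and Hoxa4-adjacent (-0.28, interval -1.28 to 0.73) did not pass. This comparison shares its tChIP-Seq libraries with the line effect.

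**Figure D4:**
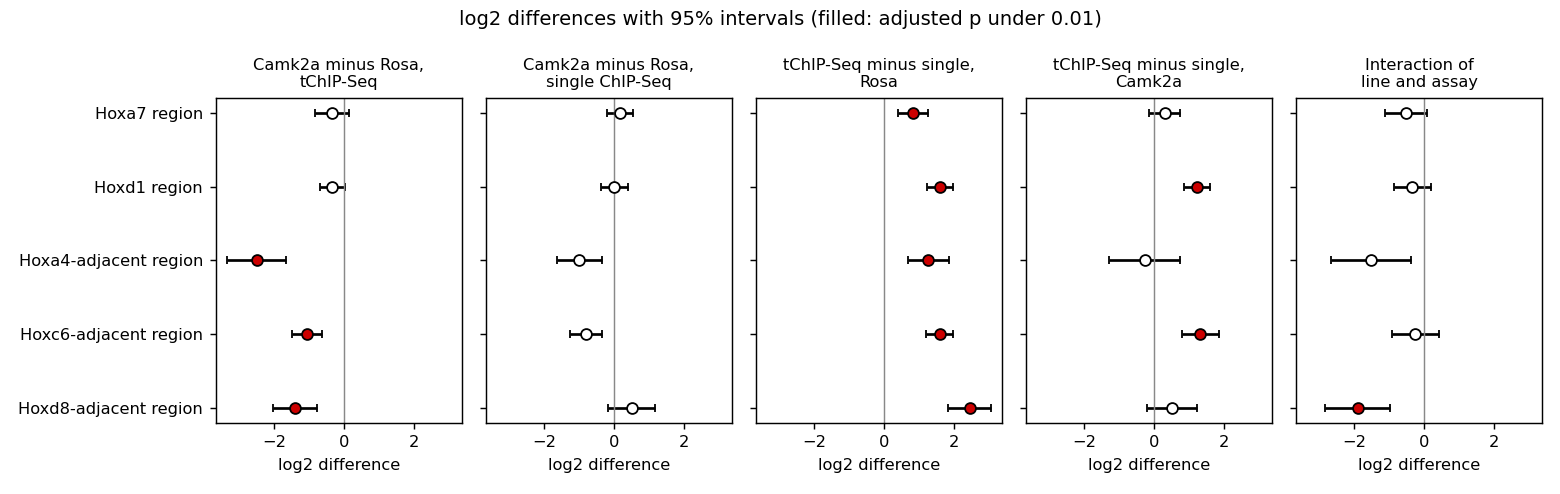
log2 differences of the 5 regions in the 4 comparisons of 2 groups and the interaction, with 95% intervals, filled where the adjusted p was under 0.01. The 3 adjacent regions are filled below 0 for Camk2a against Rosa tChIP-Seq, none is filled in single ChIP-Seq, and all 5 are filled above 0 for tChIP-Seq against single ChIP-Seq in Rosa.

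The interaction asks whether the line difference itself changed with the kind of precipitation, over all 12 libraries. Neither member was called by edgeR, 0 had an unadjusted p under 0.05, and DESeq2 called 0. Hoxd1 (-0.35, interval -0.88 to 0.18) and Hoxa7 (-0.53, interval -1.13 to 0.08) had values below 0 that did not pass. The Hoxd8-adjacent region was called, at -1.91 ± 0.47 with an adjusted p of 0.000384 in edgeR's test, against 13.2% of all regions called lower and 13.7% higher. Its mean was 1.84 CPM in Rosa and 2.62 CPM in Camk2a single ChIP-Seq, but 9.95 and 3.74 CPM in tChIP-Seq. The Hoxa4-adjacent region, at -1.54, had an adjusted p of 0.0282. In the lowest quintile by mean CPM, which holds it and Hoxd8-adjacent, 16.3% were called lower and 2.22% higher, with a median of -0.29. Hoxc6-adjacent (-0.26, interval -0.93 to 0.41) did not pass edgeR's test (adjusted p = 0.609). Its line difference was thus not shown to depend on the kind of ChIP-Seq.

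**Figure D5:**
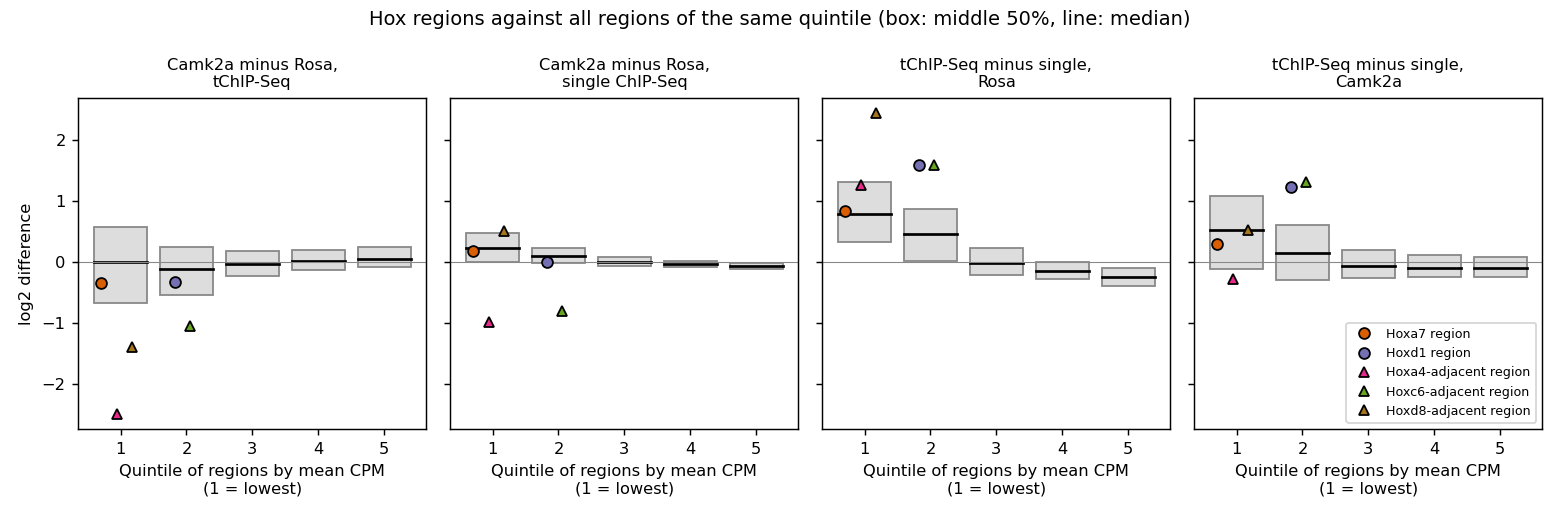
log2 differences of the 5 regions (circles over a Hox TSS, triangles adjacent) placed in their quintile of all regions by mean CPM, with the middle 50% of each quintile as a box and its median as a line. In Rosa the lowest quintile has a median of 0.79 for tChIP-Seq against single ChIP-Seq, and in single ChIP-Seq Hoxa4-adjacent and Hoxc6-adjacent lie under the boxes of their quintiles.

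By Euclidean distance over the group means of log2 CPM, the 5 regions outside the clusters nearest to the median of the members were 3 with no annotated TSS and the starts of Gm101 and Gm16790, and 201 regions were nearer to that median than Hoxa7 and Hoxd1 themselves.

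Most listed genes that work with or on the Hox genes had a region, unlike the Hox genes themselves, and some of these regions differed between the lines in tChIP-Seq. Of all protein-coding genes, 59.8% had a region over a start, and the counts of genes with a region here and below are to be read against that share. The 8 of 13 upstream regulators with a region are near it. Of 9 TALE homeobox genes, whose proteins bind DNA together with Hox proteins, 8 had a region, 3 were higher and 2 lower in Camk2a, against 17.0% of all regions higher and 14.6% lower. Pbx3 (114.0 ± 6.11 CPM in Rosa, 65.8 ± 4.51 in Camk2a) and Meis1 (91.4 ± 3.05 and 51.4 ± 6.59) were lower, by log2 differences of -0.78 and -0.82, and Pknox2 (131.5 ± 5.22 and 184.6 ± 6.92) was higher, by 0.50. Of 13 upstream regulators, 8 had a region, 2 were higher and 4 lower, to be read against the same shares. Among these, Rara, a receptor for retinoic acid, had a log2 difference of -0.87, Gdf11, a signal that sets trunk position, one of -0.76, and Rarg, another such receptor, one of -0.54. The 3 Cdx genes, caudal activators of Hox genes, had no region.

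Among the chromatin regulators, the counts called are likewise to be read against 17.0% of all regions higher and 14.6% lower. All 10 genes of the Polycomb complex PRC2, which methylates H3K27, had a region, with 0 higher and 1 lower, Phf19 (-0.73), while Jarid2 (0.14) and Rbbp4 (-0.15) did not pass. All 18 genes of PRC1, which binds that mark, had a region, with 2 higher, Pcgf2 (0.29) and Pcgf3 (0.24), and 1 lower, Phc1 (-0.32). Of 12 genes of the H3K4 methylation machinery, 11 had a region and 1 was called, Men1 (0.39), whose product menin is a partner of MLL methyltransferases, while Kmt2c (-0.15) and Kmt2b (0.17) did not pass. Of 17 other genes in or near the clusters, microRNA and other noncoding genes among them, 5 had a region and 0 were called by edgeR. Skap1 (0.68), beside the Hoxb cluster, Skap2 (-0.24), beside the Hoxa cluster, and Snx10 (0.21), further from Hoxa than Skap2, did not pass. The median log2 difference of each list was 0.15 for the TALE genes, -0.21 for the upstream regulators, -0.05 for PRC2, -0.01 for PRC1, -0.01 for the H3K4 machinery and 0.21 for the neighbours, against -0.0033 for all regions.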

How the data were processed

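H3K4me3 ChIP-Seq and tChIP-Seq libraries were taken as deposited. Per the study's methods and the labels, the authors trimmed reads with the FASTX Toolkit, removed those on repeats with Bowtie2 2.1.0, mapped the rest to mm9 with Bowtie 1.0.0, removed duplicates with SAMtools (0.1.19 in the submitters' processing notes, a later version in the study's methods), called peaks with MACS and counted reads with bedtools 2.17.0. The deposited values are whole-number read counts on 17993 regions shared by all libraries. How this list was merged is not given in the sources used here. A further 12 input and FLAG libraries were not analysed here.

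Starts were 5′ ends of GENCODE M1 transcripts on NCBIM37 (mm9). Each comparison was fitted over all regions to its own 6 libraries (12 for the interaction) with edgeR 4.0.16 (R 4.3.3), by glmQLFit and glmQLFTest after TMM, with Benjamini-Hochberg adjustment, and called under 0.01, the study's FDR. No count filter was used. SE is the log2 difference over the square root of F. CPM used TMM factors over 12 libraries. Fits were tested on simulated data, with known changes put only into regions of higher counts than Hoxa4-adjacent and Hoxd8-adjacent. Recovery of changes at such low counts was not tested. Alternatives were other scalings, DESeq2 1.42.0, a minimum of 10 counts, a threshold of 0.05, all libraries in one fit, a replicate block, a 1000 bp distance and leaving out each library. Named were all regions of the clusters, up to 3 genes of each list with the lowest adjusted p in the tChIP-Seq line effect, and the 5 most similar regions, by log2 CPM with a pseudocount of 0.5. Where a list gene had more than 1 region over its starts, only the region with the highest mean CPM was used. The members and lists (TALE genes, Hox regulators, PRC1, PRC2, H3K4 machinery, neighbours, cell type markers) were chosen with earlier results of these data known. Slc1a2, Pcgf3 and the genes named for their CG count or as having no region were named outside that rule, after their values were seen. One Hox gene with its region, and 3 genes of the other lists, are not reported here.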

Additional observations from a re-analysis of the deposited data

Results flagged for a closer look

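The Hoxd8-adjacent region, in an exon of Hoxd8, was the 1 of the 5 regions of the clusters whose line difference was called as depending on the kind of ChIP-Seq. The gene 1700109F18Rik overlaps this region too, and ChIP reads do not tell the genes apart. The interaction of line and assay was -1.91 on the log2 scale, with a 95% interval from -2.84 to -0.98 and an adjusted p of 0.000384 in edgeR's quasi-likelihood test. In single ChIP-Seq the 3 Camk2a libraries (2.15 to 3.49 CPM) lay above the 3 Rosa libraries (1.59 to 2.13 CPM), a difference that did not pass the test, and in tChIP-Seq they lay below (2.95 to 4.33 against 8.53 to 11.9 CPM). These values rest on 8 to 20 counts per library. Leaving out each library in turn gave -2.04 to -1.66. With a minimum of 10 counts in every library the region was not tested. In the lowest quintile by mean CPM, which holds it, the interaction was called lower at 16.3% of regions and higher at 2.22%. Hoxa4-adjacent, in the same quintile, had -1.54 (adjusted p = 0.0282, edgeR).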

How the results depend on the processing

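Of 150 recomputed counts of members called, 145 stayed within 1.5 times of the value reported. Most of these counts are over 2 members, and a value of 0 that stayed 0 was scored as kept, so the total of 145 says little about robustness. With all regions within 1000 bp of a Hox TSS as members, those called lower in the tChIP-Seq line effect went from 0 to 3, those higher for tChIP-Seq against single ChIP-Seq from 2 to 5 in Rosa and from 1 to 2 in Camk2a, and those lower in the interaction from 0 to 1, since 3 more regions were counted. Leaving out each library, the count higher in Rosa ran from 1 to 2, with Hoxa7 lost without the first Rosa tChIP-Seq library (0.61, adjusted p = 0.0586, edgeR). Of 316 recomputed differences of the 5 regions, 307 kept direction and call. The alternative with a minimum count in every library left out Hoxa4-adjacent in every comparison. It kept Hoxd8-adjacent only for tChIP-Seq against single ChIP-Seq in Rosa. The tChIP-Seq line effects of both regions and the interaction at Hoxd8-adjacent were thus not tested under that filter. Signs turned only for values that no fit called. Hoxd1 in the single ChIP-Seq line effect was -0.000864 with DESeq2, -0.0068 with the replicate block and -0.15 to 0.13 when each library was left out. Leaving out libraries gave -0.50 to 0.087 at Hoxa4-adjacent and -0.036 to 0.44 at Hoxa7 for tChIP-Seq against single ChIP-Seq in Camk2a, both turned without the first tChIP-Seq library. In the interaction it gave -0.48 to 0.072 at Hoxc6-adjacent, turned without Camk2a single library 2. Without Rosa tChIP-Seq library 2 the interaction at Hoxa4-adjacent passed the threshold, at -1.80 (adjusted p = 0.00989, edgeR). Libraries with the same number, paired within or across the lines, did not deviate together (Pearson r -0.018 to 0.035 over 15173 regions). Libraries of a group differed little beyond counting noise (chi-square per degree of freedom 1.03 to 1.09), so this check could hardly detect a shared lysate and cannot exclude one. Within a line the titles tie single ChIP-Seq and tChIP-Seq libraries of one number together. The replicate block changed no call of the 5 regions. Scaling to library totals moved the median of all regions by up to 0.099. It turned the calls over all regions from 167 higher and 219 lower to 194 and 57 in the single ChIP-Seq line effect and from 2466 and 2375 to 1894 and 2970 in the interaction. With 2 to 69 counts per region and library, differences smaller than the intervals given were not detectable.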
